A study of Mus musculus with 2 samples.

Results

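The LIM homeodomain genes Lhx1, Lhx2, Lhx3, Lhx4, Lhx5, Lhx6, Lhx8, Lhx9, Lmx1a and Lmx1b were examined for p300 binding around them in the developing mouse neocortex. They make up 10 of the 22367 protein-coding genes in the annotation, and were taken because the motif bound by the Lhx and Lmx proteins marks the peaks of this tissue. A peak was assigned to a gene when its midpoint lay inside the gene body or within 500 kb of its transcription start site, taken from the transcript whose coding sequence is longest. By this rule 46 of the 6629 p300 peaks fell to the 10 genes, and no peak fell to more than 1 of them. The study profiled chromatin occupied by p300, a histone acetyltransferase and co-activator found at active enhancers, in dorsal cerebral wall dissected from Swiss Webster mouse embryos at E14.5 (embryonic day), with the cortical hem, hippocampal region and choroid plexus dissected away. There was 1 library immunoprecipitated with an antibody against p300 (C-20) and 1 library of input chromatin, with no genetic change, no treatment and no replicate. Peaks at exons or within 2.5 kb of a start site had been removed by the authors, so promoters were not covered. The list gives positions without read counts or scores, so the depth behind a peak is unknown, and binding in few cells of the tissue cannot be told apart from weak binding in many.

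LIM homeodomain proteins carry a pair of LIM zinc-finger domains, which bind cofactors such as Ldb1, and a homeodomain, which contacts DNA at sequences built around TAAT. Lhx2 is known as a regulator that maintains cortical identity and progenitors in the dorsal telencephalon, while Lhx1 and Lhx5 are known from early signalling centres and Cajal-Retzius neurons. Lhx6 and Lhx8 act in the ventral telencephalon, in cortical interneurons and cholinergic neurons, Lhx3 and Lhx4 in the pituitary and in motor neurons, and Lmx1a and Lmx1b in the roof plate, the hem and midbrain dopaminergic neurons.

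The sequences that carry the main observations are shown next. The Lhx/Lmx site searched for on both strands was C or T, then TAATT, then 2 positions that were each A or G, with overlapping matches joined. These letters are a consensus read from the study's motif figure, so the sites are not the motif calls of the study. Of the 10 genes, Lhx1, Lhx5 and Lmx1b had a peak that held such a site and for which they were the nearest protein-coding start site. For each of them the qualifying peak nearest its start was taken, and 120 bases around the site nearest the midpoint of that peak are given from the forward strand of mm9 (NCBIM37), with the sites in capitals. They come from chr11:84362998-84363117, chr5:120754593-120754712 and chr2:33436266-33436385, which lie in intergenic sequence 24.1 kb upstream of Lhx1, in intergenic sequence 127 kb upstream of Lhx5 and in an intron of Lmx1b 59.7 kb downstream of its start.
Lhx1 upstream peak: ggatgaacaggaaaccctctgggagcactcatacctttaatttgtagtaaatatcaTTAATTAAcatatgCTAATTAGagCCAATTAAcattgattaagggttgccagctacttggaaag
Lhx5 upstream peak: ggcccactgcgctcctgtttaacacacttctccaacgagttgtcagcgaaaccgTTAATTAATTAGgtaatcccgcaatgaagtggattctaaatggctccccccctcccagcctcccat
Lmx1b intronic peak: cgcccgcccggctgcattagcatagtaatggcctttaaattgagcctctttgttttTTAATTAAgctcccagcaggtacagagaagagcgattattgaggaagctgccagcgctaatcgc
All of them hold TTAATTAA. The Lhx1 stretch shows 3 of the 5 sites of its peak, and the Lhx5 site is a run of overlapping matches 12 bases long. For Lhx2, the peak nearest the start site had no Lhx/Lmx site, and 120 bases around its Nfi dimer site are shown instead, a choice made after the values were seen. They come from chr2:38250409-38250528, forward strand, in intergenic sequence 44.1 kb downstream of the Lhx2 start, with the Nfi dimer site in capitals.
Lhx2 downstream peak: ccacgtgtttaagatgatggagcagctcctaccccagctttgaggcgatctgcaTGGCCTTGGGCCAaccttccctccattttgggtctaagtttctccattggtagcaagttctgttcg

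A further peak of Lhx1 and a further peak of Lhx5, a paralogous pair of genes on different chromosomes, shared sequence. The aligned segments are chr11:84589067-84589189, inside the noncoding gene Gm11431 and 250.2 kb upstream of Lhx1, and chr5:120660757-120660879, in intergenic sequence 221.1 kb upstream of Lhx5. Each is shown on the strand of its gene, with the bases that are identical in both in capitals.
Lhx1 distal segment: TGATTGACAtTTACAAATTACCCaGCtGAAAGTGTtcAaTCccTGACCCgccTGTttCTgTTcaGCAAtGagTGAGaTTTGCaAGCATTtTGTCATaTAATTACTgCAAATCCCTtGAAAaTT
Lhx5 distal segment: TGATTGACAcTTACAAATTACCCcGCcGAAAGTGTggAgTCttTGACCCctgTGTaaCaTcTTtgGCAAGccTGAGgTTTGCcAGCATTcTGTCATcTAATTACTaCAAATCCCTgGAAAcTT
They aligned over 124 positions with 97 identical bases and 2 gaps (78.2% identity, BLAST expect value 1.45e-19). Both segments ran in the same orientation relative to their gene, and each matched only 2 places in the mm9 assembly at an expect value under 0.001. Neither segment held an Lhx/Lmx site, and each peak held 1 match to the core TAATTA. No other alignment with an expect value under 1e-10 was found between peaks of different genes of the family. Over all 6629 peaks, 4 pairs on different chromosomes aligned over at least 100 bases with both segments at exactly 2 places in the genome, and the Lhx1 and Lhx5 pair was 1 of these. These criteria were chosen after the data were seen.

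Together the 10 windows held 46 peaks over 9.88 Mb of assembled sequence, where an even spread over the genome gave 25.6, a ratio of 1.80 (exact Poisson 95% interval 1.32 to 2.40, counting error only). The same ratio over the windows of all protein-coding genes was 1.04. The peaks were unevenly divided among the family. Lhx1 had 10 peaks, Lhx2 had 8, Lmx1b had 7, Lhx9 had 6 and Lhx5 had 5, while Lhx6 had 3, Lhx3, Lhx4 and Lhx8 had 2 each and Lmx1a had 1. The median was 4 peaks per gene, against 1 over all protein-coding genes, of which 30.0% had no peak. The exact Poisson intervals of neighbours in this order overlapped throughout, and the interval of Lhx1 (4.80 to 18.4 peaks) also overlapped that of Lmx1a (0.0253 to 5.57 peaks).

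**Figure D1:**
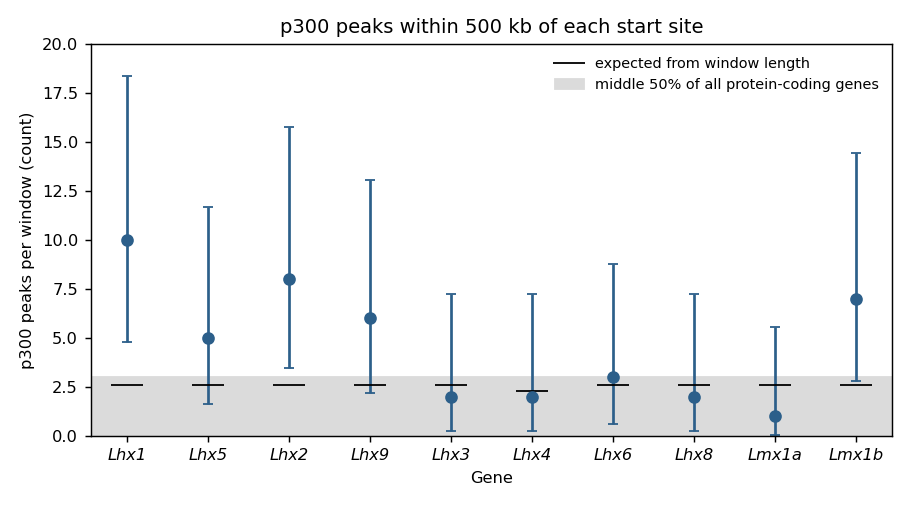
Number of p300 peaks (vertical axis, count) in the window of each gene (horizontal axis), with exact Poisson 95% intervals as bars, the number expected from the window length as black lines and the middle 50% of all protein-coding genes shaded. Lhx1, Lhx2, Lmx1b, Lhx9 and Lhx5 lie above the shaded band and the other 5 genes within it.

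In a one-sided exact binomial test of each window against its length, adjusted by Benjamini-Hochberg over all protein-coding genes, 1 of the 10 genes was called for more peaks than length predicts at 0.05, and this was Lhx1. Over all genes 914 were called (4.09%), so 1 call among 10 genes gives no result about the family as a group. Before adjustment p was under 0.05 for Lhx1, Lhx2, Lhx9 and Lmx1b, and for 2824 genes in all. In windows of 1 Mb the fewest peaks in a called window was 9 and the most in an uncalled window was 8. In the other direction the same test called 0 of the 10 genes and 0% of all genes, with 0 members and 11 genes in all at an unadjusted p under 0.05. A 1 Mb window with no peak had an adjusted p of 0.291, so a shortage of peaks could not be called in windows of this length. The test compares places in 1 library, neighbouring windows overlap and peaks cluster, so its p-values do not describe variation between animals.

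**Figure D2:**
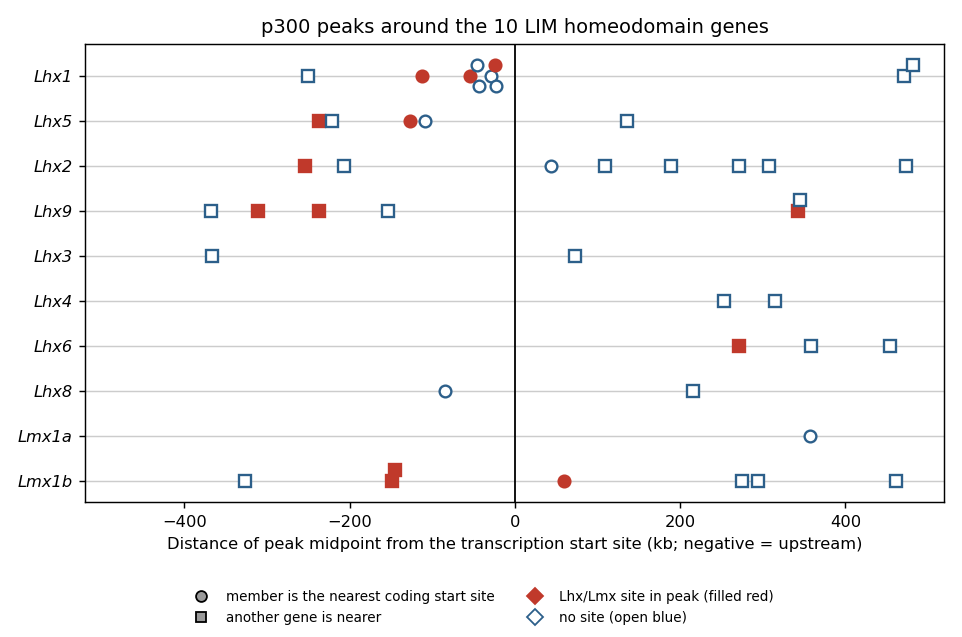
Each p300 peak placed by the distance of its midpoint from the transcription start site (horizontal axis, kb, negative upstream) for each gene (vertical axis). Filled red symbols hold an Lhx/Lmx site and open blue ones do not, circles are peaks whose nearest protein-coding start site is the gene itself, and overlapping symbols are shifted vertically. Lhx1 has 7 such peaks between 23.0 and 112 kb upstream. The peaks of Lhx4 and Lhx6 and the 1 peak of Lmx1a all lie on the downstream side.

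Lhx1 (chr11:84331479-84338923, minus strand) had a run of peaks on its upstream side. There were 7 intergenic peaks at 23.0, 24.1, 28.9, 43.3, 45.3, 53.7 and 112 kb upstream of its start. Lhx1 was the nearest protein-coding gene to all 7. A further peak lay in Gm11431, as shown above, and the remaining 2 lay in introns of Synrg and Dusp14, 482 and 472 kb downstream. The Lhx1 window held 3.86 times the expected 2.59 peaks (adjusted p = 0.0131, exact binomial test), and 2.72% of protein-coding genes had as many. The call was kept with windows reaching 250 kb on each side (7 peaks, adjusted exact p = 0.0193) and within the regulatory domain bounded by neighbouring genes (8 peaks, adjusted exact p = 0.000402). It was lost when peaks under 5 kb apart were joined (7 peaks, adjusted exact p = 0.188), with the expectation of its own chromosome (adjusted exact p = 0.0544), with windows reaching 1 Mb on each side of the start (12 peaks, adjusted exact p = 0.0809) and when narrow peaks, those under the median width, were left out (2 peaks, adjusted exact p = 1). Of the 7 upstream peaks, 6 held a Neurod/Neurog site and 3 held an Lhx/Lmx site. The 5 Lhx/Lmx sites of the peak at 24.1 kb all lay within 49 bases of its middle, the highest number of sites in any of the 46 peaks. Across all 6629 peaks the highest number was 6.

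Lhx5 (chr5:120881895-120891466, plus strand) had 4 peaks upstream, at 109, 127, 221 and 237 kb, and 1 peak 136 kb downstream. Lhx5 was the nearest protein-coding gene to the peaks at 109 and 127 kb. The other upstream peaks were nearer to Rbm19, and the downstream peak lay in an intron of Tpcn1, which encodes an endolysosomal ion channel. The ratio to length was 1.93 (adjusted exact p = 0.684). All 5 peaks lay within 250 kb of the start, where the ratio was 3.86 (adjusted exact p = 0.209). The window was gene-dense, with 21 other protein-coding start sites against 13 in that of Lhx1. Peaks of Lhx5 had a GC content of 54.8 to 57.4%, above the median of 45.2% over all peaks, and 2 of the 5 held an Lhx/Lmx site.

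Lhx2 (chr2:38194801-38225253, plus strand) had 8 peaks, and 6 of them lay downstream. The nearest, at 44.1 kb, was the 1 peak of the 8 for which Lhx2 was the nearest protein-coding gene. Further peaks lay at 110 kb downstream, nearest to Nek6, in an intron of Nek6 (189 kb), in an intron of Psmb7 (271 kb), nearest to Psmb7 (307 kb) and in an intron of Nr6a1 (473 kb). The 2 upstream peaks, at 207 and 254 kb, lay in introns of Dennd1a, a regulator of Rab GTPases. The ratio to length was 3.09 and did not pass the test (adjusted exact p = 0.0869). Of the 8 peaks, 1 held an Lhx/Lmx site, in Dennd1a, and 2 held an Nfi dimer site, at 44.1 and 110 kb downstream. Extending the window to 1 Mb on each side added no peak.

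Lhx9 (chr1:140721763-140745153, minus strand), the closest paralog of Lhx2, had 6 peaks, the nearest 153 kb from its start. All 6 lay in introns of other genes. There were 3 in Dennd1b at 153, 238 and 311 kb upstream, 1 in Crb1 at 368 kb upstream, and 2 in Nek7 at 342 and 346 kb downstream. Dennd1b and Nek7 are paralogs of Dennd1a and Nek6, so peaks fell in introns of the same pair of gene families on either side of Lhx2 and Lhx9. Lhx9 was the nearest protein-coding gene to none of them. The ratio was 2.32 (adjusted exact p = 0.383), and within the regulatory domain of Lhx9 there was no peak. Lhx/Lmx sites were found in 3 of the 6 peaks. The Lhx9 peaks ranged from 36.7 to 43.2% GC, all under the median of all peaks.

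Lhx6 (chr2:35937470-35960928, minus strand) had 3 peaks, all downstream and all at or beyond 271 kb. They lay in an intron of Ttll11 (271 kb), between genes nearest to Dab2ip (359 kb) and in an intron of Dab2ip (454 kb). The nearest peak upstream of Lhx6 was 1992 kb away. The peak in Ttll11 held an Lhx/Lmx site and all 3 held a Neurod/Neurog site. Lhx8 (chr3:153969260-153993615, minus strand) had 1 intergenic peak 84.0 kb upstream, to which it was the nearest gene, and 1 peak 215 kb downstream in an intron of Slc44a5. Neither held an Lhx/Lmx site. The upstream peak was 498 bases wide, the narrowest of the 46. The ratios were 1.16 for Lhx6 and 0.772 for Lhx8 (both adjusted exact p = 1).

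Lhx3 (chr2:26055732-26063769, minus strand) had 2 peaks, 73.3 kb downstream nearest to Nacc2 and 367 kb upstream nearest to Egfl7. Its window held 28 other protein-coding start sites, the most of the 10. Lhx4 (chr1:157548827-157589157, minus strand) had 2 peaks, at 253 and 315 kb downstream, nearest to Acbd6 and Xpr1. The nearest peak upstream of Lhx4 was 1096 kb away, and 0.877 Mb of its 1 Mb window was assembled. The ratios were 0.772 and 0.880 (both adjusted exact p = 1), and none of the 4 peaks held an Lhx/Lmx site or was nearest to its LIM homeodomain gene.

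Lmx1a (chr1:169619370-169778872, plus strand) had 1 peak, 357 kb downstream, to which it was the nearest gene. Lmx1b (chr2:33416485-33496031, minus strand) had 7, of which 1 lay in its own intron. That intronic peak was the sole peak of the 46 inside the body of a LIM homeodomain gene, and it held the Lhx/Lmx site shown above, 1 Rfx dimer site and 1 Hox dimer site, and no Neurod/Neurog site. The other peaks of Lmx1b lay 145, 148 and 326 kb upstream, in introns of Fam125b or nearest to it, and 275, 295 and 462 kb downstream in introns of Ralgps1. The ratio was 0.386 for Lmx1a (adjusted exact p = 1) and 2.70 for Lmx1b (adjusted exact p = 0.197). The values of this pair depended on the window. Within 1 Mb on each side Lmx1a had 13 peaks (ratio 2.51, adjusted exact p = 0.0396) and Lmx1b had 20 (ratio 3.86, adjusted exact p = 4.16e-05).

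By distance, the density of peaks around the 10 genes was 6 per Mb within 50 kb of the start and 4.00 between 50 and 100 kb, against 1.75 and 2.15 around all protein-coding genes. It was 4.50, 6 and 5.06 per Mb in the following 3 bins of 100 kb, and 2.63 between 400 and 500 kb, against 2.61 for all genes. Of the 6 peaks within 50 kb, 5 belonged to Lhx1 and 1 to Lhx2, so the other 8 genes had none in that range. A peak between 200 and 300 kb was present for 8 of the 10 genes, against 29.9% of all protein-coding genes. This was the bin with the most genes. In the other bins, from nearest to farthest, 2, 4, 5, 7 and 4 of the 10 genes had a peak. The shares of all protein-coding genes there were 12.8, 15.4, 28.4, 30.7 and 31.4%. Each of the 12 peaks between 200 and 300 kb was nearest to a protein-coding gene outside the family. Their target genes are unknown.

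**Figure D3:**
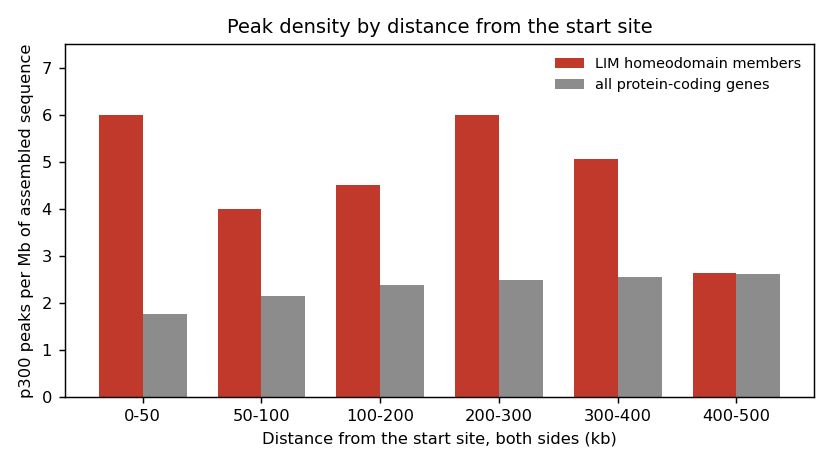
Peaks per Mb of assembled sequence (vertical axis) by distance from the start site on both sides (horizontal axis, kb), for the 10 LIM homeodomain genes in red and all protein-coding genes in grey. The red bars range from 2.63 to 6 per Mb and the grey bars from 1.75 to 2.61, and the 2 are nearly level in the last bin.

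Of the 46 peaks, 24 lay in introns, 21 between genes and 1 in a noncoding gene, and 1 overlapped an annotated exon. A LIM homeodomain gene was the nearest protein-coding gene to 13 of the 46 (28.3%, exact Clopper-Pearson 95% interval 16.0 to 43.5%), where the same share over the windows of all protein-coding genes was 11.8%. Of these 13, 7 belonged to Lhx1, 2 to Lhx5 and 1 each to Lhx2, Lhx8, Lmx1a and Lmx1b. When the start sites of noncoding genes were counted too, 3 of the 46 (6.52%) remained nearest, those of Lhx8, Lmx1a and the Lmx1b intron. The peaks had a median width of 990.5 bp, against 1017 bp over all peaks, and a median GC content of 49.9%, against 45.2%.

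An Lhx/Lmx site was present in 13 of the 46 peaks (28.3%, 16.0 to 43.5%), against 38.0% of all peaks (36.9 to 39.2%). In regions of the same length 10 kb downstream of each peak the shares were 13.0% around the 10 genes and 22.8% over all peaks. For these regions, here and below, downstream means towards higher mm9 coordinates, whatever the strand of the gene. These regions were not screened for other peaks. That of the Lhx1 peak at 43.3 kb overlapped the Lhx1 peak at 53.7 kb and included its Lhx/Lmx and Neurod/Neurog sites. That of the Lhx1 peak in Synrg overlapped the Lhx1 peak in Dusp14, which held neither site. The interval of the 46 peaks included the value for all peaks. The share was 38.5% (5 of 13, 13.9 to 68.4%) where the LIM homeodomain gene was the nearest protein-coding gene. It was 37.5% (9 of 24) within 250 kb of the start. Both were close to the 38.0% of all peaks, before GC content was considered. In the middle 500 bp of the peaks it was 17.4% (8 of 46), against 26.4% of all peaks. There the share differed with the nearest gene. It was 38.5% (5 of 13, 13.9 to 68.4%) where a LIM homeodomain gene was nearest, an interval that includes the 26.4% of all peaks. Of those 5 peaks, 3 were peaks of Lhx1. Where another gene was nearest it was 9.09% (3 of 33, 1.92 to 24.3%). GC content differed between the sets, and the share was therefore also taken on either side of the median GC content of all peaks, a split added after the data were seen. At or under the median, 7 of 15 peaks (46.7%) held a site against 48.8% of all peaks, and above it 6 of 31 (19.4%) against 27.3%. The 13 peaks nearest to a LIM homeodomain gene all lay above the median (46.3 to 57.2% GC). Their share of 38.5% thus stands beside 27.3% on that side, a value inside its interval. There were 20 sites in the 46 peaks, of which 4 contained TTAATTAA, 1 each near Lhx1, Lhx5, Lhx9 and Lmx1b. The core TAATTA, which overlaps the full site, was present in 39.1% of the 46 peaks and 46.7% of all peaks.

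The Neurod/Neurog site, C or G, C or T, CA, G or T, then CTG, was present in 28 of the 46 peaks (60.9%, 45.4 to 74.9%), against 55.0% of all peaks and 34.8% of the regions 10 kb downstream of the 46. At or under the median GC content the direction turned, with 5 of 15 peaks (33.3%) against 45.9% of all peaks, while above it 23 of 31 (74.2%) held a site against 64.0%. Where the LIM homeodomain gene was the nearest protein-coding gene, 10 of 13 peaks held it (76.9%, 46.2 to 94.96%). These 13 peaks all lay above the median GC content, and the 64.0% of all peaks on that side is inside this interval. Of the 13, 7 were peaks of Lhx1. The Nfi dimer site was found in 4 of the 46 peaks, near Lhx2, Lhx3 and Lmx1b, which is 8.70% against 6.68% of all peaks. The regions 10 kb downstream of the 46 also held it in 8.70%, and in the middle 500 bp of the peaks the direction turned, with 2.17% against 4.62% of all peaks. The Rfx dimer site was found in 6.52% (3 of 46) against 3.74%. In the middle 500 bp it was level, with 2.17% against 2.19% of all peaks. The Hox dimer site, whose letters can overlap those of the Lhx/Lmx site, was found in 6.52% against 12.5%. The regions 10 kb downstream held the Hox dimer site in 8.70% around the 10 genes and 10.9% over all peaks. For the Lhx/Lmx, Neurod/Neurog, Nfi dimer, Rfx dimer and Hox dimer motifs, these letters matched more of all peaks than the study reported with its own motif calls. A match to any of these describes letters in the sequence and not occupancy by the factor.

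**Figure D4:**
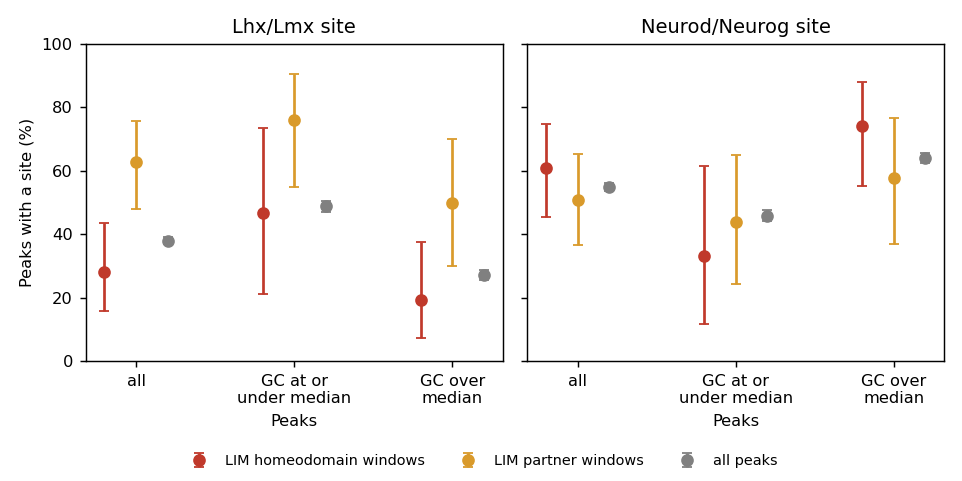
Percentage of peaks with an Lhx/Lmx site (left) or a Neurod/Neurog site (right), for all peaks of each set and on either side of the median GC content of all peaks, with exact Clopper-Pearson 95% intervals as bars. For the Lhx/Lmx site the LIM homeodomain windows in red (28.3%) lie under the LIM partner windows in orange (62.7%), and the grey points for all peaks (38.0%) lie between them. The partner list includes the related LIM homeodomain genes Isl1 and Isl2.

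The genes that encode partners of LIM homeodomain proteins were taken as a list of 12, comprising the related LIM homeodomain genes Isl1 and Isl2, the cofactors Ldb1 and Ldb2, the LIM-only genes Lmo1 to Lmo4, the Ldb-binding genes Ssbp2, Ssbp3 and Ssbp4 and the ubiquitin ligase gene Rlim. Their windows held 51 peaks, 1.64 times the number expected, with a median of 5 per gene. The test was passed by 0 of 12, against 4.09% of all protein-coding genes (4 had an unadjusted p under 0.05). Lmo1 and Lmo4 had 8 peaks each, Ldb2 had 7, of which 6 lay in its own body, and Isl1 had 6. Lmo2, Lmo3 and Ssbp3 had 5 each, Isl2, Ldb1 and Ssbp4 had 2 each, Ssbp2 had 1 and Rlim had 0. The nearest peak to the start of a LIM homeodomain gene was the one at 23.0 kb from Lhx1. Some partners had nearer ones, at 5.92 kb upstream of Lmo1, 16.6 kb upstream of Lmo2, 6.57 kb downstream of Lmo4 and 3.80 kb upstream of Ssbp4. An Lhx/Lmx site was present in 32 of the 51 partner peaks (62.7%, 48.1 to 75.9%), against the 28.3% of the LIM homeodomain windows, a comparison of lists that is given as a description. The share in partner windows was 76.0% at or under the median GC content and 50% above it. A site was held by 5 of 6 peaks of Isl1, 6 of 7 of Ldb2, 6 of 8 of Lmo4, 4 of 8 of Lmo1 and 3 of 5 of Lmo3. It was held by 2 of 5 peaks of Lmo2 and 1 of 5 of Ssbp3, by 2 of 2 of Ldb1, by 1 of 2 of Isl2 and of Ssbp4, and by the 1 peak of Ssbp2.

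Other lists of regulators were used as points of reference. The 6 dorsal patterning genes held 45 peaks, 2.89 times the number expected (median 6 per gene). Of the 6, 2 passed the test and 5 had an unadjusted p under 0.05. Over all 22367 protein-coding genes, 914 passed (4.09%) and 2824 had an unadjusted p under 0.05. The 6 ventral telencephalon homeobox genes held 14 peaks (ratio 1.34, median 3) and the 4 POU class 3 genes held 13 (ratio 1.27, median 3), with 0 called in either list and 2 and 1 genes at an unadjusted p under 0.05. The ratio of 1.80 for the LIM homeodomain genes lay between these values. The peak list holds no expression, so markers of the dissected tissue could not be measured.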

How the data were processed

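The p300 library and the input library each came from E14.5 dorsal cerebral wall. The authors aligned the reads to mm9, called peaks against the input with MACS (the submitters' processing notes name version 1.4) and removed peaks at exons, near start sites or in non-unique sequence. The deposited list gives the positions of 6629 peaks, with no score, signal or fold, and the input library was not analysed here. Genes came from GENCODE vM1 on NCBIM37. Peak midpoints were counted in each window and tested as described above against the share of 2.56 Gb of assembled sequence with scipy 1.17.1. Motif consensus letters were read from the study's motif figure and matched exactly to the genome sequence, so the sites are not the study's own motif calls and the shares depend on this reading. Peaks were aligned with BLAST+ 2.17.0. The window test and the motif search were tested on simulated peaks and planted sites. The members, lists, motifs and tests were chosen with earlier results of these data known. Genes named were the members, the LIM partners and the genes nearest to, or holding, a described peak. Alternatives changed the window, start site, peak set, expectation and motif.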

Additional observations from a re-analysis of the deposited data

How the results depend on the processing

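No paired analysis was possible because there is 1 library of each kind. The ratio of peaks to length stayed above 1 under every setting tried for the 10 genes together, with 1.80 as reported and 2.92 in regulatory domains the sole value outside its interval. With narrow peaks (under the median width) left out, the interval, 0.952 to 2.41, included 1. The number of genes called for more peaks was 2 within 1 Mb on each side (Lmx1a and Lmx1b) and 0 with joined peaks, without narrow peaks or with the expectation of each chromosome. Over all genes the 914 calls became 466 within 250 kb, 1537 within 1 Mb, 255 in regulatory domains, 516 with joined peaks, 459 without narrow peaks, 716 with the expectation of each chromosome and 1146 with exons and start sites left out. For fewer peaks 0 became 2948 within 1 Mb, with 0 of the 10 genes among them. The median of 4 peaks per gene became 2 within 250 kb, 6.5 within 1 Mb, 2 in regulatory domains, 1.5 without narrow peaks and 1 when each peak went to its nearest gene. The share of peaks with an Lhx/Lmx site became 17.4% in the middle 500 bp (all peaks 26.4%), 60.9% with the looser consensus (TAATT, then A or G; all peaks 68.4%) and 46.7% at low GC content. The 17.4% in the middle 500 bp was 38.5% (13.9 to 68.4%) where a LIM homeodomain gene was nearest. It was 9.09% (1.92 to 24.3%) where another gene was. The share nearest to the gene became 6.52% with all annotated start sites and 50% within 250 kb. For genes not called as reported above, the ratio crossed 1 for Lhx6 (1.16 as reported; 0 within 250 kb, in its regulatory domain and without narrow peaks, 0.772 within 1 Mb, 0.924 on its own chromosome), Lhx8 (1.54 within 250 kb, 1.25 in its domain), Lhx4 (1.24 within 1 Mb), Lmx1a (2.51 within 1 Mb, 2.79 in its domain), Lhx3 (2.77 in its domain, 1.19 without exons and start sites) and Lhx9 (0 in its domain). The causes were not tested. The number of peaks per window limits these values: the exact Poisson interval of 1 peak is 0.0253 to 5.57 and that of 3 peaks 0.619 to 8.77.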
